A study of Mus musculus with 6 samples.

Results

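The clustered histone genes of the mouse supply the proteins around which newly copied DNA is wrapped, and their transcripts were followed here in RNA that had been selected for poly(A) tails. Members were all genes of the deposited table whose name starts with Hist followed by a cluster number from 1 to 4 and the letter h. This rule found 67 of 41819 genes, of which 6 encode the linker histone H1, 18 encode H2A, 18 encode H2B, 12 encode H3 and 13 encode H4. Of these, 54 lie in the Hist1 cluster on chromosome 13, 10 in the Hist2 cluster on chromosome 3, 2 in Hist3 on chromosome 11 and 1 in Hist4 on chromosome 6.

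The study placed a lentiviral TetOne cassette in which human PARG (hPARG) and, after an IRES, a nuclear mClover3 fluorescent protein are made together in mouse 3T3 fibroblasts and worked with a single clone. PARG is the enzyme that removes poly(ADP-ribose) chains from proteins, histones among them. In the hPARG group, 3 dishes received 500 ng/ml doxycycline for 72 h, and the control group of 3 dishes of the same clone was kept for 72 h at 0 ng/ml, with puromycin in the medium of both. RNA was selected for poly(A) tails and sequenced, and the comparison asks which transcripts differ once hPARG is induced. The labels speak of wells and the methods of dishes, and dish is the word used here. Nothing in the labels describes cultures kept apart for longer than these dishes of 1 clone, so each p-value below measures the spread between dishes. No deposited RNA-seq sample received doxycycline without the cassette, so the drug and hPARG cannot be told apart in these data. Only mouse genes are listed in the table, so expression of the human cassette could not be read from it. The endogenous Parg gene had 1246, 1317 and 1032 counts in the control dishes and 1095, 1400 and 1096 in the hPARG dishes, with a log2 fold change of 0.04.

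Most animal messenger RNAs end in a poly(A) tail, but the transcripts of the clustered histone genes are made during S phase, carry no introns as a rule, and are cleaved shortly after a conserved stem-loop without gaining a tail. The stem-loop is held by the protein SLBP, which works with the U7 small nuclear RNA and a set of cleavage factors to form the end and later guides translation and decay of the transcript. Some of these genes can also give longer, tailed transcripts that run past the stem-loop, and selection for poly(A) favours these over the tailless form.

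The annotated transcripts show this end. Searched on the transcript strand over the full length of the annotated transcripts for CTTTTNAG flanked on each side by 4 bases that pair with each other, 44 of the 67 members (65.7%) held a match, against 117 of all 21951 protein-coding genes (0.533%) and 73 of the 21884 outside the list (0.334%). In the members the stem began between 21 and 58 bases after the stop codon, with a median of 31. Outer bases differed by class, since GGCT opened the stem in 4 H1, 11 H2A, 10 H2B and 8 H3 genes, whereas 9 H4 genes opened with GGCC and 2 with GGTC. A match describes letters of the annotation and is no measurement of where transcripts ended in these cells. Sites are shown for the member with the highest level in each class, followed by Hist2h4, the member with the smallest p-value; capitals mark the stem-loop, and the letters run 5′ to 3′ along the transcript.
Hist1h1c: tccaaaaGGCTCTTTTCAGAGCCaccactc
Hist1h2ap: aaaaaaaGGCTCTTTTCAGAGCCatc
Hist1h2bk: caccaaaGGCTCTTTTAAGAGCCactaaac
Hist1h3b: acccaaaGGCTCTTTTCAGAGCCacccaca
Hist1h4n: aactaaaGGCCCTTTTCAGGGCCatccaat
Hist2h4: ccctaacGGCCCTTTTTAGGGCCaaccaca
In GRCm38 these sites lie at chr13:23739505-23739534 on the plus strand, chr13:21833026-21833051 on the minus strand, chr13:22036293-22036322 on the plus strand, chr13:23752813-23752842 on the plus strand, chr13:21831791-21831820 on the minus strand and chr3:96262932-96262961 on the minus strand, in the order shown. The annotated transcript ends 3 bases after the stem-loop in Hist1h2ap, 30 after it in Hist1h2bk, 31 in Hist1h4n and 51 in Hist1h3b. It goes on for 840 bases in Hist1h1c and for 1257 in Hist2h4.

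Counts assigned to genes came to 25263818, 22512587 and 21619908 in the control dishes, in the order of their numbers, and to 22136902, 23897120 and 22482282 in those with hPARG. The histone members together took 1840, 1411 and 1862 of these in the control dishes and 1745, 1461 and 2081 in the hPARG dishes. The dish numbered 2 was the lowest of its group in both groups, and the groups overlapped. As a share of all counts this was 0.00739% ± 0.00118 for control against 0.00775% ± 0.00158 for hPARG (SD, n = 3 each). By dish, the share was 0.00728% (95% Wilson interval 0.00696 to 0.00762), 0.00627% (0.00595 to 0.00660) and 0.00861% (0.00823 to 0.00901) in control. It was 0.00788% (0.00752 to 0.00826), 0.00611% (0.00581 to 0.00644) and 0.00926% (0.00887 to 0.00966) in hPARG. The intervals of the dishes numbered 2 overlapped each other and none of the other 4. Such intervals cover counting error only and not the spread between dishes.

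The dishes numbered 2 stood apart for short genes in general. For each tested gene, the log2 of its count relative to library size (CPM, scaled by TMM) was set against the mean of its group. Over the 38 members with enough counts to be tested, the median of this deviation was 0.03, -0.26 and 0.35 for the control dishes, again by number, and 0.05, -0.23 and 0.25 for the hPARG dishes. In control dish 2, 31 of the 38 lay below their group mean, as did 29 in hPARG dish 2. The tested members had a median exon length of 705 bases, against 4548 for all 11509 tested genes, and 32 of them were among the 1150 genes with the shortest exons. The other 1118 of these genes had median deviations of 0.03, -0.24 and 0.21 in control and 0.13, -0.25 and 0.12 in hPARG. Dishes numbered 2 were thus low for the histone genes and for other short genes alike, while dishes numbered 3 were the highest of their group for the histone members. Among the classes, H2A had median deviations of -0.40 in control dish 2 and -0.46 in hPARG dish 2, with 8 of 8 tested genes below 0 in each. The 11 tested H3 genes had -0.29 and -0.02, with 8 and 7 below 0, and among the hPARG dishes their lowest was dish 1 at -0.26. The tested H1 genes, whose median exon length was 1745 bases, had -0.05 and -0.36.

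**Figure D1:**
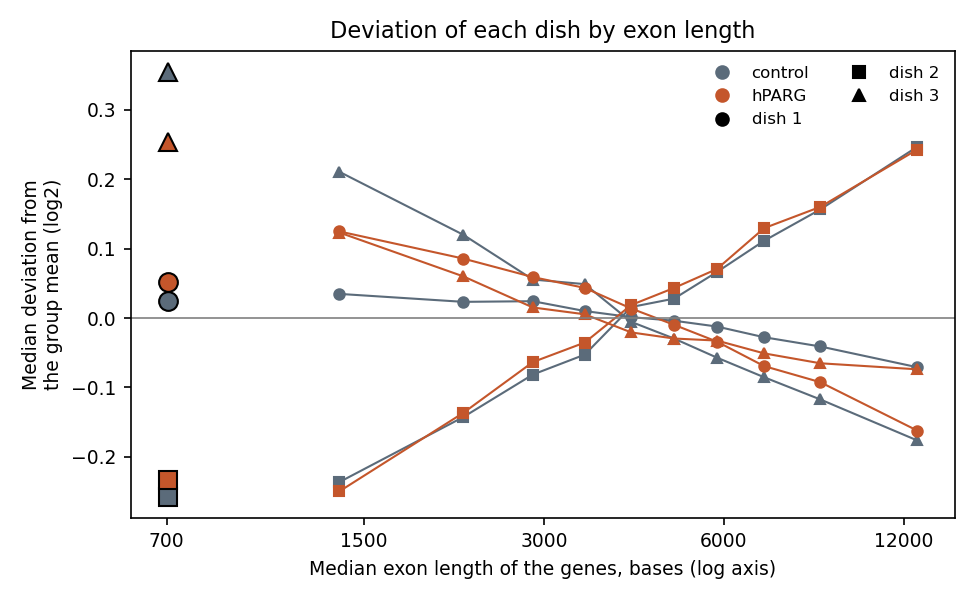
Median deviation of each dish from its group mean (log2 CPM, vertical axis) for 10 bins of the tested genes by exon length (joined points, log axis in bases) and for the 38 tested histone genes (outlined symbols at 705 bases). Both dishes numbered 2 lie at the bottom for short genes and at the top for long ones, and the histone genes stand at -0.26 and -0.23 in these dishes.

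Levels in this poly(A)-selected RNA were low. The deposited RPKM, which is scaled by exon length, had a median of 1.24 over the tested members and 8.21 over all tested genes. RPKM also depends on the selection for tails, on the annotated exons and on how shared reads were assigned. It is therefore no measure of all the histone RNA in the cells. Hist1h4n had the highest mean RPKM of the members, 11.3, and 4782 of the 11509 tested genes (41.6%) lay above it. A tested member had a median of 33.1 counts per dish, against 769 for all tested genes, and its log2 fold change a median standard error (SE) of 0.37, against 0.15. Differences between the groups were thus measured less precisely for the histone genes than for a typical tested gene.

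By class, the highest mean RPKM was 3.50 in H1 (Hist1h1c), 9.06 in H2A (Hist1h2ap), 5.91 in H2B (Hist1h2bk), 9.54 in H3 (Hist1h3b) and 11.3 in H4 (Hist1h4n). H3 took 26.8% of the members' counts, H2A 23.0%, H4 18.7%, H1 16.6% and H2B 14.9%. Of the 67 members, 62 had a count in at least 1 dish. The 5 without were Hist1h2aa and Hist1h2ba, the testis-type H2A and H2B genes, with Hist1h2af, Hist2h2aa2 and Hist1h4m. For Hist1h2aa, which shares no 150-base stretch with another member, counting error leaves room for up to 3 counts in a dish, or 0.117 to 0.141 CPM. The other 4 share such stretches, and their zeros may also depend on how reads were assigned. A further 23 members had under 50 counts over all 6 dishes. The filter on low counts passed 38 members, namely 4 of 6 for H1, 8 of 18 for H2A, 7 of 18 for H2B, 11 of 12 for H3 and 8 of 13 for H4, and 29 were not tested.

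The cells carried the markers of fibroblasts. Of 11 fibroblast genes, 8 had a mean RPKM over 1, led by Vim at 1548, while Pdgfrb reached 0.685 and Dcn (0.126) and Lum (0.0141) were near 0. Of the leukocyte genes, Cd3e and Adgre1 were at 0 in all dishes and Cd68 had a mean RPKM of 0.566, and the highest of the epithelial and endothelial genes were Krt8 at 0.164 and Kdr at 0.0807. The fibroblast genes summed to 7821, 8400 and 7216 CPM in control and 8449, 9534 and 8306 in hPARG.

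Between the groups, 0 of the 38 tested members passed a false discovery rate (FDR) of 0.05 with a difference over 2-fold in the edgeR quasi-likelihood test, as against 10 of all 11509 tested genes (0.0869%). DESeq2, fitted to 62 members, also called 0 of them, and 22 of all 16898 genes fitted. It gave no FDR to some members with few counts, such as Hist1h2bn and Hist1h1a, so these could not be called. With edgeR's likelihood ratio test 1 member was called, Hist2h4, and 30 of all 11509 tested genes. At an unadjusted p under 0.05 the quasi-likelihood test had 5 members (13.2%), against 455 of all tested genes (3.95%). Of these, 2 were higher in hPARG, Hist1h3d and Hist2h2aa1, where the share of all tested genes was 1.42%. The other 3, Hist2h4, Hist2h3b and Hist1h1e, were lower, where it was 2.54%. The number higher was 1 without control dish 2, 1 without hPARG dish 3, and 5 without hPARG dish 2. Of all tested genes, 4.95%, 2.25% and 3.84% had an unadjusted p under 0.05 in either direction in these fits. Dish values of the groups did not overlap for 2 tested members that were higher in hPARG (Hist1h3d and Hist2h2aa1) and 2 that were lower (Hist2h4 and Hist2h3b), and the same held for 3.61% and 6% of all tested genes. The median log2 fold change was 0.10 over the tested members, with 22 above 0, and 0.004 over all tested genes. For the members it was 0.02 with offsets for exon length and GC content, -0.02 without control dish 2, -0.02 without hPARG dish 3, 0.04 without hPARG dish 1, 0.18 without hPARG dish 2 and 0.29 without control dish 3. In bulk RNA, the number of cells making histone RNA and its amount per cell cannot be told apart.

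**Figure D2:**
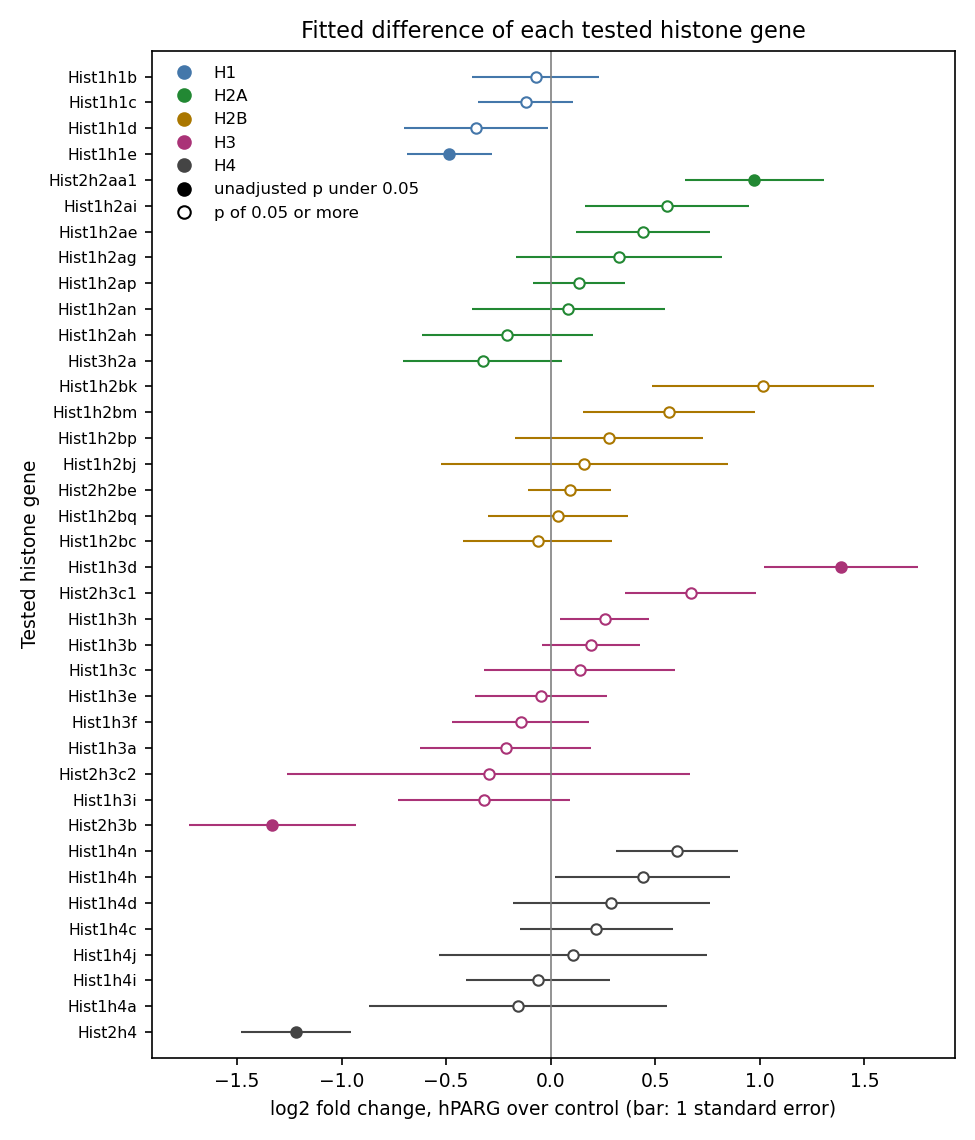
Log2 fold change (hPARG over control, horizontal axis) of the 38 tested histone genes by class, with bars of 1 standard error; filled points have an unadjusted p under 0.05. The filled points are Hist1h1e, Hist2h2aa1, Hist1h3d, Hist2h3b and Hist2h4, and none of the 38 passed an FDR of 0.05 in this test.

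**Figure D3:**
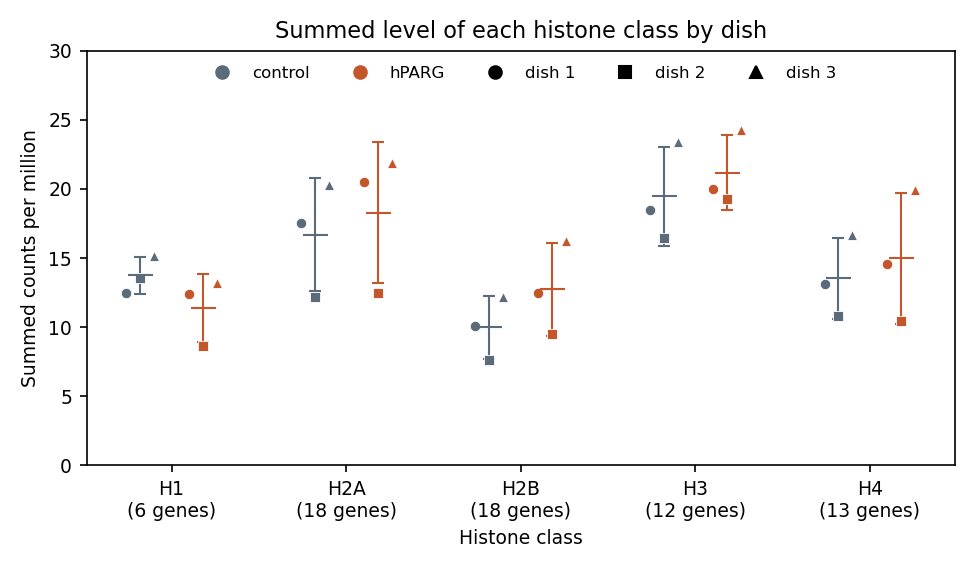
Summed CPM of each histone class in every dish (points; shape gives the dish number), with the mean and SD of 3 dishes per group. The groups overlap in all 5 classes, and the dish numbered 2 is the lowest of its group except for H1 in control.

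H1 binds the linker DNA between nucleosomes. Its 6 genes summed to 12.5, 13.6 and 15.2 CPM in the control dishes and to 12.4, 8.61 and 13.2 in the hPARG dishes. The hPARG dish numbered 2 was lowest and the groups overlapped, with means of 13.7 ± 1.35 and 11.4 ± 2.43 (SD, n = 3) and a log2 ratio of -0.27, beside an SD between dishes of 0.25 on this scale. All 4 tested H1 genes had a log2 fold change below 0, with a median of -0.24, and this held under TMM, RLE and library-size scaling and with offsets for exon length and GC content. Without hPARG dish 2 it held for 2 of the 4, with a median of -0.04, and without control dish 1 for 3. The median was -0.38 without hPARG dish 3, and -0.42 over all 6 genes with DESeq2 or without a filter.

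Hist1h1c, the H1 gene with the highest RPKM, had 156, 137 and 141 counts in control and 150, 92 and 142 in hPARG. Its hPARG dish 2 was low and the other dishes overlapped, with a log2 fold change of -0.12 (SE 0.23), which turned to 0.11 without that dish. Hist1h1e, which encodes another somatic linker histone, had 98, 116 and 112 counts in control and 64, 76 and 87 in hPARG. Scaled to depth, 3.82, 4.99 and 5.28 CPM in control stood against 2.93, 3.13 and 3.99 in hPARG, so the groups overlapped through control dish 1 and hPARG dish 3. The log2 fold change was -0.48 (SE 0.20, unadjusted p = 0.0435, FDR = 0.999). The unadjusted p was above 0.05 without control dish 2, control dish 3, hPARG dish 1 or hPARG dish 2, and with DESeq2. Hist1h1b, a linker histone gene with no stem-loop in its annotated transcript, had 36, 23 and 18 counts in control and 25, 21 and 24 in hPARG. Its groups overlapped, with the highest and the lowest value both in control, and the log2 fold change was -0.07. The untested members of the class, Hist1h1a and the testis gene Hist1h1t, had between 0 and 6 counts a dish.

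H2A forms the dimer with H2B that sits on either face of the nucleosome. Summed over 18 genes, H2A reached 17.6, 12.2 and 20.3 CPM in control and 20.5, 12.4 and 21.9 in hPARG. Dishes numbered 2 were low in both groups and the groups overlapped, at 16.7 ± 4.12 and 18.3 ± 5.10 (SD, n = 3), a log2 ratio of 0.13. This ratio turned to -0.05 without control dish 2 and -0.02 without hPARG dish 3. Of 8 tested genes 6 lay above 0, and the median log2 fold change was 0.23. With the length and GC offsets 5 lay above 0 and the median was 0.05, and without control dish 2 they numbered 4, with a median of 0.08. The median was 0.37 without control dish 1, 0.51 without hPARG dish 2, and 0.14 without hPARG dish 1 or hPARG dish 3. With DESeq2 or without a filter it was also 0.14.

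Hist1h2ap, the H2A gene with the highest RPKM, had 120, 76 and 121 counts in control and 116, 107 and 115 in hPARG. Its transcript shares 91.0% of its 150-base stretches with other members, so its count may depend on how reads were assigned. Control dish 2 was low and the groups overlapped, with a log2 fold change of 0.14 (SE 0.22) that turned to -0.05 without that dish. Hist1h2ah, a further core H2A gene, had 55, 33 and 76 counts in control and 63, 31 and 44 in hPARG, and Hist1h2an of the same kind had 56, 24 and 38 and then 64, 22 and 33. In both, dish 2 was the lowest of its group, and the log2 fold changes were -0.21 and 0.08. Hist2h2aa1, an H2A gene of the Hist2 cluster, had 25, 20 and 24 counts in control and 35, 35 and 61 in hPARG. All 3 hPARG dishes were above all control dishes, with dish 3 far above the others. The log2 fold change was 0.97 (SE 0.33, unadjusted p = 0.0193, FDR = 0.999), and it was 0.62 without hPARG dish 3. The unadjusted p was above 0.05 without that dish or without control dish 2. Its transcript shares 86.7% of its 150-base stretches with Hist2h2aa2, which is listed at 0 in all dishes. Its exons also overlap Gm20634, which is not protein-coding, on the same strand over 90.3% of their bases. Gm20634 is listed at 0 as well, and whether its reads were counted for Hist2h2aa1 was not tested.

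H2B, the partner of H2A, summed over 18 genes to 10.1, 7.61 and 12.2 CPM in control and 12.5, 9.48 and 16.2 in hPARG. Each group had its lowest value in dish 2 and its highest in dish 3, and they overlapped at 9.98 ± 2.30 and 12.7 ± 3.39 (SD, n = 3). The log2 ratio of 0.35 was below the SD between dishes on this scale, 0.37. Of 7 tested genes 6 lay above 0, with a median of 0.16, which was 0.04 without control dish 2, 0.07 without hPARG dish 1 and 0.48 without control dish 3. With DESeq2 or without a filter the median was 0.09. Hist1h2bk, the H2B gene with the highest RPKM, had 69, 21 and 54 counts in control and 65, 54 and 159 in hPARG. One dish of each group was extreme, control dish 2 at the bottom and hPARG dish 3 at the top, and the groups overlapped. Its log2 fold change of 1.02 (SE 0.53, unadjusted p = 0.093, FDR = 0.999) was 0.34 without hPARG dish 3. Hist1h2bm, another core H2B gene, had 8, 14 and 15 counts in control and 12, 23 and 19 in hPARG, and Hist1h2bc 42, 27 and 35 and then 47, 28 and 21. Both overlapped between the groups, with log2 fold changes of 0.57 and -0.06. That of Hist1h2bm was 0.28 without control dish 1 and 0.80 without control dish 3. Among the untested H2B genes, Hist1h2bn, chosen after its values were seen, had 0 counts in each control dish and 5, 3 and 3 in hPARG, so 2 of its 3 hPARG dishes were at the floor of 3 counts. Hist1h2bh, with 8, 6 and 2 counts in control and 9, 10 and 8 in hPARG, was also higher without overlap in CPM. Hist3h2ba went the other way, with 3, 4 and 1 counts in control and 1, 0 and 1 in hPARG. Its groups parted only through the scaling to depth, at 0.0471 CPM in control dish 3 and 0.0459 in hPARG dish 3. The untested H4 gene Hist4h4 was lower too, with 9, 9 and 11 counts in control and 7, 6 and 5 in hPARG. All these untested genes were picked by their values, and the share of all untested genes without overlap was not computed.

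H3, which with H4 forms the core of the nucleosome, summed over 12 genes to 18.5, 16.5 and 23.4 CPM in control and to 20.0, 19.2 and 24.3 in hPARG. The groups overlapped, with dish 3 highest in each, at 19.5 ± 3.57 and 21.2 ± 2.70 (SD, n = 3) and a log2 ratio of 0.12. Its 11 tested genes were divided, 5 above 0 and 6 below, with a median of -0.05. This turned to 0.24 without control dish 3 (7 above 0), 0.04 without hPARG dish 1 (8 above 0) and 0.01 without control dish 2, and was -0.15 without hPARG dish 3. It was also above 0 with DESeq2 (0.05), without a filter (0.04) and without both dishes numbered 2 (0.04). Hist1h3b, the H3 gene with the highest RPKM, had 158, 102 and 161 counts in control and 148, 136 and 182 in hPARG, and Hist1h3h, a core H3 gene with nearly the same RPKM of 9.20, had 84, 80 and 97 and then 114, 114 and 77. The groups overlapped for both, in Hist1h3h through hPARG dish 3, and the log2 fold changes were 0.19 and 0.26. That of Hist1h3b was 0.009 without control dish 2 and 0.38 without control dish 3. That of Hist1h3h was 0.13 without hPARG dish 1 and 0.42 without control dish 3. Hist1h3d, a core H3 gene whose annotated transcript runs 752 bases past the stem-loop, had 7, 9 and 5 counts in control and 14, 22 and 18 in hPARG. All hPARG dishes stood above all control dishes, on 75 counts in all. The log2 fold change was 1.39 (SE 0.37, unadjusted p = 0.00572, FDR = 0.717), and it stayed between 1.26 and 1.61 with any 1 dish left out.

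Hist2h3b, one of 3 H3 genes of the Hist2 cluster that share sequence, had 58, 23 and 28 counts in control and 12, 12 and 17 in hPARG. The hPARG dishes all lay below the control dishes, and control dish 1 lay far above the others. The log2 fold change was -1.33 (SE 0.40, unadjusted p = 0.0107, FDR = 0.896), and -0.91 without control dish 1. Its transcript shares 73.8% of its 150-base stretches with its copies Hist2h3c1 and Hist2h3c2, which were looked at after these values were seen. Hist2h3c1 had 50, 31 and 45 counts in control and 45, 61 and 88 in hPARG, and Hist2h3c2 had 0, 36 and 9 and then 14, 15 and 7. Where Hist2h3c2 was at 0, in control dish 1, Hist2h3b had its highest value. Summed, the 3 copies had 108, 90 and 82 counts in control and 71, 88 and 112 in hPARG, so the lowest and the highest dish were both hPARG dishes. The log2 fold change of the sum was 0.01 (SE 0.21, unadjusted p = 0.978).

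**Figure D4:**
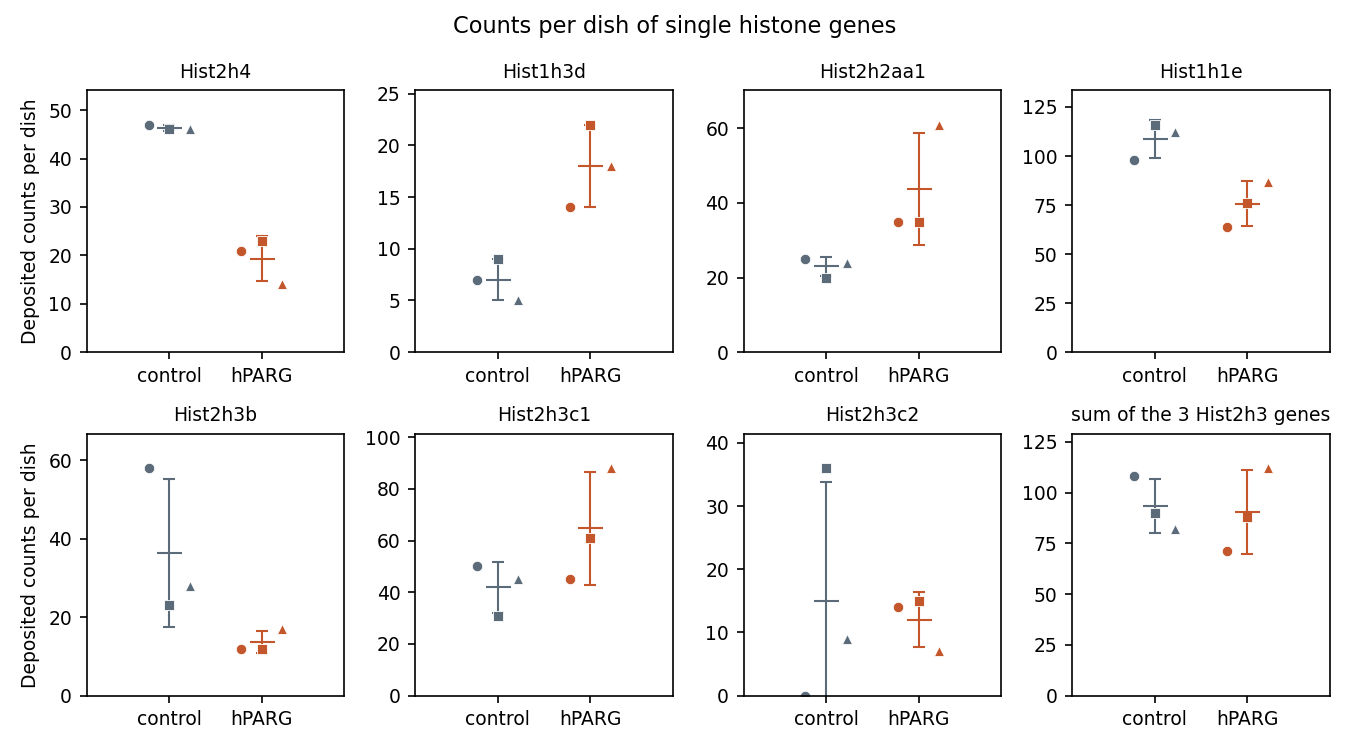
Deposited counts in each dish of the genes Hist2h4, Hist1h3d, Hist2h2aa1, Hist1h1e and the Hist2h3 copies with their sum (circle, square and triangle for dishes 1, 2 and 3; bars give the mean and SD of 3 dishes). Hist2h4 stands at 46 to 47 in control and 14 to 23 in hPARG, whereas the Hist2h3 sum overlaps between the groups.

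H4, the partner of H3, summed over 13 genes to 13.2, 10.8 and 16.6 CPM in control and to 14.6, 10.4 and 19.9 in hPARG. Dishes numbered 2 were lowest, those numbered 3 highest, and the groups overlapped at 13.5 ± 2.92 and 15.0 ± 4.75 (SD, n = 3), with a log2 ratio of 0.14. This ratio turned to -0.12 without hPARG dish 3 and was 0.007 without control dish 2. Of 8 tested genes 5 lay above 0, with a median of 0.16, which turned to -0.02 without control dish 2 and -0.06 without hPARG dish 3 and was 0.05 without hPARG dish 1 and 0.43 without control dish 3. With DESeq2 or without a filter the median was 0.02, with 6 of 12 genes above 0. Hist1h4n, the member with the highest RPKM, had 114, 83 and 98 counts in control and 112, 110 and 209 in hPARG. In CPM, hPARG dishes 1 and 3 were above every control dish, dish 3 far above, and the groups overlapped through hPARG dish 2. The log2 fold change of 0.60 (SE 0.29, unadjusted p = 0.0748, FDR = 0.999) was 0.20 without hPARG dish 3 and 0.80 without hPARG dish 2. Hist1h4h, a core H4 gene, had 26, 28 and 41 counts in control and 60, 24 and 41 in hPARG, and Hist1h4i 63, 34 and 59 and then 49, 33 and 62. The groups overlapped for both, with log2 fold changes of 0.44 and -0.06. That of Hist1h4h was 0.05 without hPARG dish 1 and 0.75 without control dish 3 or hPARG dish 2.

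Hist2h4, the H4 gene of the Hist2 cluster, had 47, 46 and 46 counts in control and 21, 23 and 14 in hPARG. The control dishes lay close together and all hPARG dishes lay below them. In CPM this was 1.83, 1.98 and 2.17 against 0.963, 0.948 and 0.642. Its log2 fold change was -1.22 (SE 0.26, unadjusted p = 0.00188, FDR = 0.459), the smallest p among the members. The likelihood ratio test gave an FDR of 0.00545, DESeq2 gave 0.137, and over all settings tried on single genes the FDR ran from 0.00545 to 1.00 and the log2 fold change from -1.31 to -1.06. Hist2h4 shares no 150-base stretch with another member, and whether its reads were shared through shorter or inexact matches was not tested.

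The dishes numbered 2 were also left out together, a choice made after the data were seen. By edgeR's quasi-likelihood test on the other 4 dishes 0 members were then called, while 5 were higher and 2 lower at an unadjusted p under 0.05, as were 6.78% of all tested genes in either direction. Log2 ratios of the class sums became -0.12 for H1, 0.16 for H2A, 0.36 for H2B, 0.08 for H3 and 0.21 for H4, and 3 of the 4 tested H1 genes still lay below 0. Hist2h4 had a log2 fold change of -1.31, Hist2h3b -1.43, Hist1h3d 1.51 and Hist2h2aa1 1.07, each with an unadjusted p under 0.05, whereas Hist1h1e had -0.38 (unadjusted p = 0.179).

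The members could also be parted by the annotated end, with a division at 100 bases after the stem-loop that was chosen after the data were seen and received no test. In 22 members the annotated transcripts that hold the stem-loop stopped within 100 bases of it, though Hist1h2bp also has a transcript without it. In 22 others at least 1 ran further, and 23 had no stem-loop in any transcript. Of these 23, 15 had under 30 bases annotated after the stop codon, too few to hold a stem-loop that begins 21 or more bases after it. The signal AATAAA occurred after the stop codon in 19 members, of which 13 were among those running past the stem-loop. Members that end near the stem-loop summed to 26.5, 19.7 and 31.9 CPM in control and 31.3, 23.8 and 45.1 in hPARG, and 11 of 12 tested lay above 0, with a median log2 fold change of 0.30. Those running past it summed to 25.5, 25.9 and 31.5 CPM in control and 25.4, 20.6 and 31.0 in hPARG, with 6 of 15 above 0 and a median of -0.06. Members without a stem-loop had 5 of 11 above 0 and a median of -0.06. The groups of dishes overlapped in both sums, with hPARG dish 3 the highest for the short ends. Without the filter on low counts 14 of 20 members ending near the stem-loop lay above 0, with a median of 0.17. Among those tested the median was 0.13 with the length and GC offsets, 0.07 without control dish 2, where 9 of 13 lay above 0, 0.15 without hPARG dish 3, where 9 of 12 did, 0.18 without hPARG dish 1 and 0.48 without control dish 3. The medians of the other sets turned to 0.12 (past the stem-loop) and 0.16 (no stem-loop) without control dish 3 and to 0.02 and 0.13 without hPARG dish 2. Without control dish 1 that of the set with no stem-loop was 0.06, and without hPARG dish 1 that of the set running past it was 0.003. In the other direction, the set running past it had -0.13 without control dish 1, -0.10 without control dish 2, -0.15 without hPARG dish 3 and -0.14 with the offsets, and the set with no stem-loop had -0.17 without control dish 2, -0.10 without hPARG dish 3 and -0.13 with the offsets.

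**Figure D5:**
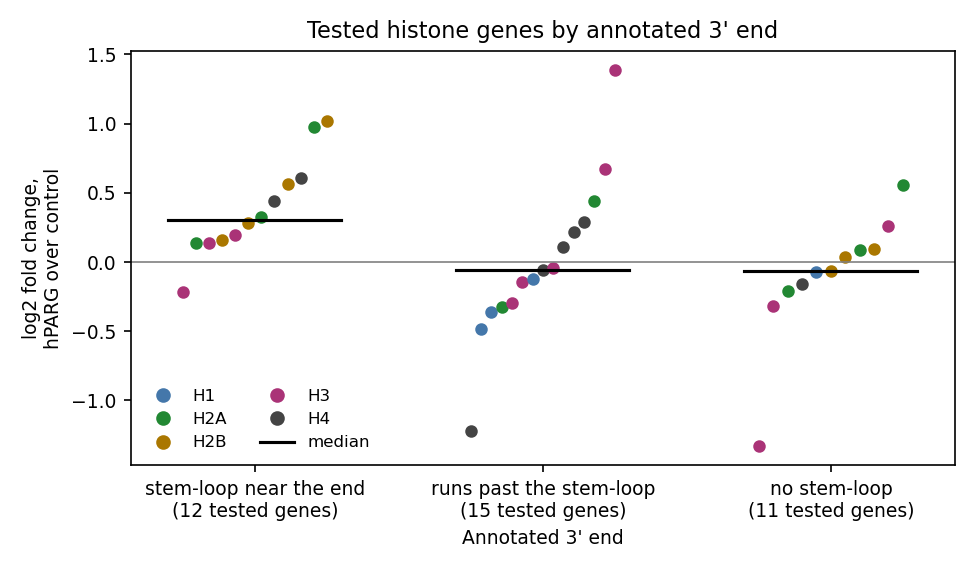
Log2 fold change (hPARG over control) of the tested histone genes by annotated 3′ end, 1 point per gene coloured by class, with the median as a line. Medians are 0.30 for 12 genes that end near the stem-loop, -0.06 for 15 that run past it and -0.06 for 11 without it; the difference between these sets was not tested.

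Sequence is shared among most of the histone genes, and the count of such a member may depend on how reads were assigned, which was not tested. Of the 67 members, 50 share at least 1 stretch of 150 bases, taken from the longest annotated transcript, with another member, 30 of them among the tested, and 20 share more than 50% of their stretches with other members. Summing the counts of members linked in this way, a step added after the data were seen, left 15 tested features. By the edgeR quasi-likelihood test 0 of these passed the FDR, and at an unadjusted p under 0.05 there were 2, Hist2h4 lower and Hist2h2aa1 higher in hPARG, against 3.93% of all features tested. Most H2B genes of the Hist1 cluster joined in 1 set of 15 genes, with Hist1h1e through an overlapping annotated transcript, which had 291, 230 and 309 counts in control and 276, 233 and 373 in hPARG. A set of 11 H2A genes had 351, 222 and 349 and then 376, 234 and 345, and a set of 9 H3 genes 366, 293 and 415 and then 366, 379 and 417. All these sums overlapped between the groups, with log2 fold changes of 0.14, 0.10 and 0.15. Exons of 21 members overlap a gene on the other strand and those of 7 overlap one on the same strand. On the same strand, Gm20634 covers 90.3% of the exon bases of Hist2h2aa1 and 100% of those of Hist2h3c1. On the other strand, Gm20628 covers 100% of those of Hist2h3b. Both overlapping genes are not protein-coding and are listed at 0, and whether their reads were counted for the histone genes was not tested.

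Outside the clusters, a list of histone genes that for the most part are not tied to S phase and have ordinary poly(A) tails included some with far higher levels. H2afz, the H2A variant H2A.Z, had a mean RPKM of 713, H3f3b and H3f3a, both encoding the variant H3.3, had 252 and 92.7, and H1f0, the linker histone H1.0, had 150. Of the 11 listed genes 10 were tested, H2afy2 being the exception. By edgeR's quasi-likelihood test 0 passed the FDR, as by DESeq2 and the likelihood ratio test (0 each), 2 had an unadjusted p under 0.05, where all tested genes had 3.95%, and the median log2 fold change was -0.02. H2afz had 21896, 14467 and 21076 counts in control and 19801, 15055 and 22007 in hPARG, again with dish 2 lowest in each group, and a log2 fold change of 0.04. H3f3a, H3f3b and H1f0 had log2 fold changes of 0.11, -0.14 and -0.15 with overlapping groups. Over all settings tried on single genes, H3f3b ran from -0.21 to -0.05 and H1f0 from -0.27 to -0.02. The DNA-damage variant gene H2afx, whose annotated transcript also holds a stem-loop, had 1309, 1127 and 1165 counts in control and 1367, 1402 and 1332 in hPARG. Its groups did not overlap in CPM, as for the 3.61% of all tested genes given above, and the log2 fold change was 0.23 (unadjusted p = 0.044, FDR = 0.999). The linker histone gene H1fx had 899, 762 and 665 counts in control and 651, 608 and 480 in hPARG. All its hPARG dishes were below the control dishes, as for 6% of all tested genes, and the log2 fold change was -0.37 (unadjusted p = 0.024, FDR = 0.999). The unadjusted p of H1fx was above 0.05 without control dish 1 or hPARG dish 3. That of H2afx was above it without control dish 1, control dish 2, hPARG dish 1 or hPARG dish 3, and with library-size scaling, no filter or the likelihood ratio test.

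Genes that make, process and deliver the histones gave small differences. In the list for histone gene transcription and 3′ processing, all 18 genes were tested, 3 lay above 0 and 15 below, and the median log2 fold change was -0.04. Slbp, which encodes the stem-loop binding protein, had 3518, 3002 and 2788 counts in control and 2895, 3056 and 2442 in hPARG, and Npat, the activator of histone gene transcription, had 976, 1004 and 752 and then 780, 1063 and 791. Both overlapped between the groups, with log2 fold changes of -0.10 and -0.01. Srrt, a partner of the cap-binding complex and the list's gene with the highest RPKM, stood at -0.04, and Cstf2, a cleavage factor subunit, at -0.14 with groups that did not overlap in CPM. All 17 histone chaperone genes were tested, 3 above 0 and 14 below with a median of -0.06, where Rbbp7, a histone-binding subunit, had -0.06 and the centromeric chaperone gene Hjurp 0.16. Of the 21 S-phase genes, all tested, 3 lay above 0 and 18 below with a median of -0.09, and Pcna, the sliding clamp of replication, had -0.06 and the origin licensing gene Cdt1 -0.22. Dish values did not overlap for Hjurp, higher in hPARG, or for 3 S-phase genes that were lower, Cdt1 and, named after their values were seen, Mcm7 and Rrm2, beside the 3.61% and 6% of all tested genes. Over these 3 lists, the edgeR quasi-likelihood test had 0 genes past the FDR and 0 at an unadjusted p under 0.05, and DESeq2 and the likelihood ratio test also had 0 past the FDR.

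How much tailless RNA passed the selection could not be gauged from other transcripts. Of 12 RNAs that carry no poly(A) tail, such as Rn7sk and Rpph1, 11 are in the table and 0 had a count. The same holds for nearly all genes that do not encode a protein, with 19850 of 19868 at 0 in all dishes and counts in 18. These zeros are therefore no measurement of the RNAs concerned, and whether the histone counts come from tailed or tailless transcripts was not tested.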

How the data were processed

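RNA of 3 control and 3 hPARG dishes was analysed. The authors mapped the reads to GRCm38 (Ensembl annotation) in CLC Genomics Workbench and deposited total counts per gene, whole numbers without normalization. The authors also deposited RPKM, per kilobase of exon and relative to a library total that is not stated, used here to compare levels. The deposited TPM, CPM, fold changes and p-values were not used. Mapping kept reads with several hits up to a set maximum. Whether strand was used in counting, and how such hits were shared in counting, is not given in the sources used here.

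All genes were filtered with filterByExpr (minimum count 10), scaled by TMM and fitted with the quasi-likelihood test of edgeR 4.0.16 (R 4.3.3, limma 3.58.1), group being the only term. FDR is Benjamini-Hochberg over the 11509 tested genes, and a gene was called at an FDR under 0.05 and over 2-fold. The standard error is the absolute log2 fold change over the square root of F. Class sums are TMM-scaled CPM over all members, without a test. Alternatives were DESeq2 1.42.0, RLE or library-size scaling, the likelihood ratio test, no filter, a minimum of 10 counts in each dish, the replicate block, offsets for exon length and GC content (splines with 4 degrees of freedom), class sums over tested members only, and each dish left out. Leaving out both dishes numbered 2 and summing copies were added after seeing the data.

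Named genes are, in each class, the 3 tested members with the highest mean RPKM and the one with the lowest p; from each other list, the gene with the highest RPKM and that with the lowest p; and Slbp, Npat, H2afz, H2afx, H3f3a, H3f3b and H1f0. In the processing list, Zcchc6 is an older name of Tut7 and was counted once, as Tut7. Annotation and transcript sequences are those of GENCODE for GRCm38. Members and lists were chosen with earlier results of these data known. Tables were made with Python 3.11.15, pandas 2.3.3, numpy 2.4.6 and scipy 1.17.1.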

Additional observations from a re-analysis of the deposited data

How the results depend on the processing

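In the edgeR quasi-likelihood test 0 histone genes were called and 5 had an unadjusted p under 0.05. The number called was 0 under 16 of the 17 alternatives and 1 with the likelihood ratio test, where Hist2h4 had a log2 fold change of -1.22. That test called 30 of all 11509 tested genes, against 10 as reported. The number at an unadjusted p under 0.05 and higher in hPARG, 2 as reported, was 4 with DESeq2, 6 without a filter, 1 with at least 10 counts in every dish, 4 with the likelihood ratio test, 5 with the replicate block, 4 with the block and the length and GC offsets, 3 with the offsets alone, 5 without both dishes numbered 2 and 1 with copies summed, and between 1 and 5 with a dish left out. DESeq2 and the fit without a filter covered 62 members, against 38 as reported. In both, the members higher in hPARG included Hist1h2bn, which the filter had left untested. Of all tested genes, 17.9% had an unadjusted p under 0.05 in either direction with the block and 18.9% with the block and the offsets, against 3.95% as reported. This share was 2.73% with DESeq2, 3.11% without a filter and 4% with at least 10 counts in every dish. It was 4.14% with the likelihood ratio test and 6.15% with the offsets alone. The number lower, 3 as reported, was 2 with DESeq2, 2 without both dishes numbered 2, 1 with copies summed and 2 to 3 with a dish left out. Without both dishes numbered 2, and with copies summed, are alternatives chosen after seeing the data. Apart from the smaller number of features in the copies summed and of dishes in those left out, the cause of these shifts was not tested.

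Dish numbers did not pair the groups throughout. Across genes, and after the group mean was subtracted, same-numbered dishes correlated with r = 0.0963, 0.610 and 0.168, and control dish 1 correlated best with hPARG dish 3 (0.207) and control dish 3 with hPARG dish 1 (0.335), so the replicate block is given as a check alone. With this block the median log2 fold change of the tested histone genes was 0.09 and that of the H3 genes, -0.05 as reported, was 0.05, and the listed genes outside the clusters at an unadjusted p under 0.05, 2 as reported, numbered 16, where all tested genes showed the rise to 17.9% given above. Of these, H1fx and Cdt1 passed an FDR of 0.05 at less than 2-fold, with 0.0237 and 0.0499 under the block and 0.0344 and 0.0433 with the offsets as well, while over all alternatives their FDR ran from 0.0237 to 1.00 and from 0.0433 to 1.00. The listed genes at an unadjusted p under 0.05 were 15 with the block and the offsets, 1 with library-size scaling, 1 without a filter, 1 with the likelihood ratio test, 4 without both dishes numbered 2 and 0 to 3 with a dish left out. Of all tested genes this held for 18.9%, 4.08%, 3.11%, 4.14%, 6.78% and 2.25% to 4.95%, in the same order.

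With a dish left out, the log2 ratio of the class sums ran from -0.39 to -0.11 for H1, from -0.05 to 0.35 for H2A, from 0.14 to 0.52 for H2B, from 0.01 to 0.28 for H3 and from -0.12 to 0.35 for H4, and the median of the tested members from -0.02 to 0.29. Of the 32 named genes, 21 kept their sign under the 15 or 16 alternatives run on single genes and 11 did not. With copies summed, the sets that hold Hist2h3b and Hist1h1e, both below 0 as single genes, had 0.01 and 0.14. The ranges over the dishes left out were -0.21 to 0.18 for Hist1h1b, -0.27 to 0.11 for Hist1h1c, -0.53 to 0.20 for Hist1h2ah, -0.47 to 0.41 for Hist1h2an, -0.052 to 0.32 for Hist1h2ap, -0.48 to 0.15 for Hist1h2bc and -0.31 to 0.19 for Hist1h4i. Outside the clusters they were -0.13 to 0.22 for H2afz, -0.046 to 0.28 for H3f3a, -0.11 to 0.071 for Npat and -0.19 to 0.034 for Pcna. Hist1h2an was also -0.13 with the length and GC offsets and -0.16 with the offsets and the block, and Hist1h1c was 0.079 without both dishes numbered 2. The cause was not tested. Low counts per gene and 3 dishes per group limit what could be told apart.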
